A study of Mus musculus with 4 samples.

Results

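Kdr, Flt1, Tek, Tie1, Cdh5 and Pecam1, which encode receptors and cell junction proteins of the endothelium, were followed in mouse gastrocnemius muscle after removal of the adrenal glands and after a glucocorticoid injection. They were read through every probe set of the deposited value table whose platform annotation names one of these genes and no other. This gave 8 of 10833 such probe sets and 6 of 8251 genes, and no gene was without a probe set. Each of the 4 Affymetrix MG_U74Av2 arrays held RNA pooled from the gastrocnemius of 10 mice. The groups were adrenalectomized mice, taken 1 week after surgery, adrenalectomized mice 3 h after 0.1 mg of cortisol given into the peritoneum, adrenalectomized mice 24 h after the same dose, and intact mice. For both cortisol groups the labels do not give the interval since surgery, and they describe no vehicle group and give no strain, sex or age. Adrenalectomy takes away both adrenal steroids and adrenaline, so it is not a loss of glucocorticoid alone.

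Endothelial cells line the capillaries that run between muscle fibres. Kdr and Flt1 encode receptor tyrosine kinases for vascular endothelial growth factor (VEGF): Kdr transmits most of its growth and permeability signals, while Flt1 binds the ligand tightly and signals weakly, so that it acts in part as a decoy. Tek encodes the receptor of the angiopoietins, which keep vessels quiescent, and Tie1 encodes a related receptor that binds no angiopoietin directly and modulates Tek. Cdh5 encodes VE-cadherin, the adhesion molecule of endothelial adherens junctions, and Pecam1 encodes an adhesion molecule of endothelial cell contacts that platelets and leukocytes also carry.

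The proximal promoters of the 4 receptor genes are shown because these genes differed among themselves at 3 h after cortisol and because several ETS factor genes, described further on, were lower on the same array. ETS proteins bind DNA around the letters GGAA and take part in the activity of many endothelial promoters. Whether these motifs or the ETS genes had a part in the differences at 3 h was not tested. Each run holds the 250 bases before the transcription start listed by RefSeq (build GRCm38.p6), read 5′ to 3′ on the gene's strand, and capitals mark GGAA on either strand. The windows are chr5:75978456-75978705 (minus strand) for Kdr, chr5:147726012-147726261 (minus) for Flt1, chr4:94739039-94739288 (plus) for Tek and chr4:118489850-118490099 (minus) for Tie1.
Kdr: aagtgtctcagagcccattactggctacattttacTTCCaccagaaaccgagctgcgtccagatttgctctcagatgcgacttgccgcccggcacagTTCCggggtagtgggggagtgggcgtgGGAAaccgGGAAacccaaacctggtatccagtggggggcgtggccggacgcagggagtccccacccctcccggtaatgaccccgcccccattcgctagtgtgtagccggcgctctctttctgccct
Flt1: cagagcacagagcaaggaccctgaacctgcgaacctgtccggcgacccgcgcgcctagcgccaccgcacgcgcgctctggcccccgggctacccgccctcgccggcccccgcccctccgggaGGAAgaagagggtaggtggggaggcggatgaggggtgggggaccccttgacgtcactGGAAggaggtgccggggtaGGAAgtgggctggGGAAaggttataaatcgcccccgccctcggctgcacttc
Tek: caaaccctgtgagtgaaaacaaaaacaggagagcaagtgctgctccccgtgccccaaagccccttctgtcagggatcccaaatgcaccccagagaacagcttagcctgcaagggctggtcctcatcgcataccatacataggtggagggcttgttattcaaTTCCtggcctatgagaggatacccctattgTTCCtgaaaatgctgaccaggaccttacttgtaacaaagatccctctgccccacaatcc
Tie1: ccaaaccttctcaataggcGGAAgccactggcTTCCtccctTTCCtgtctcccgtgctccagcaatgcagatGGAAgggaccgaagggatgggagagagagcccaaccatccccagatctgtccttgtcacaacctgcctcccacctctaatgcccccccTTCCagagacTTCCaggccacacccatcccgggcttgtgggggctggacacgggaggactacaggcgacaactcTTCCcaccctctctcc
For Kdr and Flt1 all 250 bases, and for Tek 203 of them, lay inside the gene's annotated span, since the annotated gene begins further upstream. None did for Tie1.

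GGAA occurred 4 times in the Kdr window, 4 times in that of Flt1, 2 times in that of Tek and 7 times in that of Tie1. Among 32851 windows of this length in the table, 76.8% held at least 2, 33.4% at least 4 and 3.82% at least 7. The GC box GGGCGG, searched like the other motifs on both strands, occurred 2 times for Kdr and 3 times for Flt1, counts reached by 16.7% and 8.47% of windows, and in neither angiopoietin receptor window. GATA occurred 1 time each for Kdr and Tek, and 53.6% of windows held it. AGAACA, an arm of the binding site of the glucocorticoid receptor, occurred 1 time, in the Tek window, and 16.1% of windows held it. The whole palindromic site, both arms with 3 free bases between them, was found in none of the 4 windows and in 3 of all windows. No 2 different motifs overlapped in these windows. The base composition differed, with 61.6% G and C for Kdr, 70.4% for Flt1, 51.2% for Tek and 60.4% for Tie1, against a median of 52.4%.

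All values are signals of the MAS 5.0 software on a linear scale, brought to the same trimmed mean of 500 on every array, and signals under 100 were treated as 100. With 1 array per group there was no test, the number of arrays limits the precision, and each comparison sets 1 pool of mice against another. Every array also had its own fluidics module, and effects of the group, the pool and the module cannot be told apart. The only error measure came from 926 to 928 genes with 2 bright probe sets, whose log2 ratios differed by an amount that gives an SD of 0.24 between the adrenalectomized and intact arrays, 0.28 between the 3 h and adrenalectomized arrays and 0.32 between the 24 h and adrenalectomized arrays. This SD covers probe error only and no variation between mice. Of 16 listed glucocorticoid-induced genes, 12 were higher and 1 lower by 1.5-fold at 3 h against adrenalectomized. Of all genes 5.07% were higher and 4.75% lower by that much. This list was chosen with earlier results of these data known, so its count is no independent check of the injection. Fkbp5 had a signal of 3771 at 3 h, against 796 on the adrenalectomized array, while Tsc22d3 was the lower one, with 155 against 256. Fast fibre genes summed to between 323646 and 339079 on the 4 arrays. They held the highest signal of the adrenalectomized array (Myh4, 34919) and of the 24 h array (Tnnt3, 36007). Whether signals that bright could still rise was not tested, so the flat sum says little about how alike the arrays were.

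Kdr was the member with the largest difference. Its signal was 406 on the adrenalectomized array, 204 at 3 h after cortisol, 392 at 24 h and 319 on the intact array. The 3 h array was thus the lowest and the other 3 lay above it by at least 1.56-fold. Against the adrenalectomized array Kdr was 1.99-fold lower at 3 h (log2 ratio -0.99, against the SD of 0.28), and 1.04-fold lower at 24 h. It was 1.92-fold higher at 24 h than at 3 h, and 1.27-fold higher after adrenalectomy than in intact mice. In whole muscle, fewer endothelial cells and less RNA per endothelial cell cannot be told apart.

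Flt1 was read by a pair of probe sets that did not give the same picture. The set 98453_at had signals of 487 on the adrenalectomized array, 773 at 3 h, 429 at 24 h and 502 on the intact array, so that the 3 h array stood above the others. The set 98452_at had 551 on the adrenalectomized array, 478 at 3 h, 504 at 24 h and 416 on the intact array, with no peak at 3 h. At 3 h against the adrenalectomized array the first was 1.59-fold higher and the second 1.15-fold lower, log2 ratios of 0.67 and -0.20. A gap of that size or more was found in 38 of the 928 genes with 2 bright probe sets (4.09%). The mean over both sets was a log2 ratio of 0.23, under 1.5-fold. Which transcripts of Flt1 each set detects is not given in the sources used here, so a higher Flt1 level at 3 h rested on 1 of 2 probe sets.

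**Figure D1:**
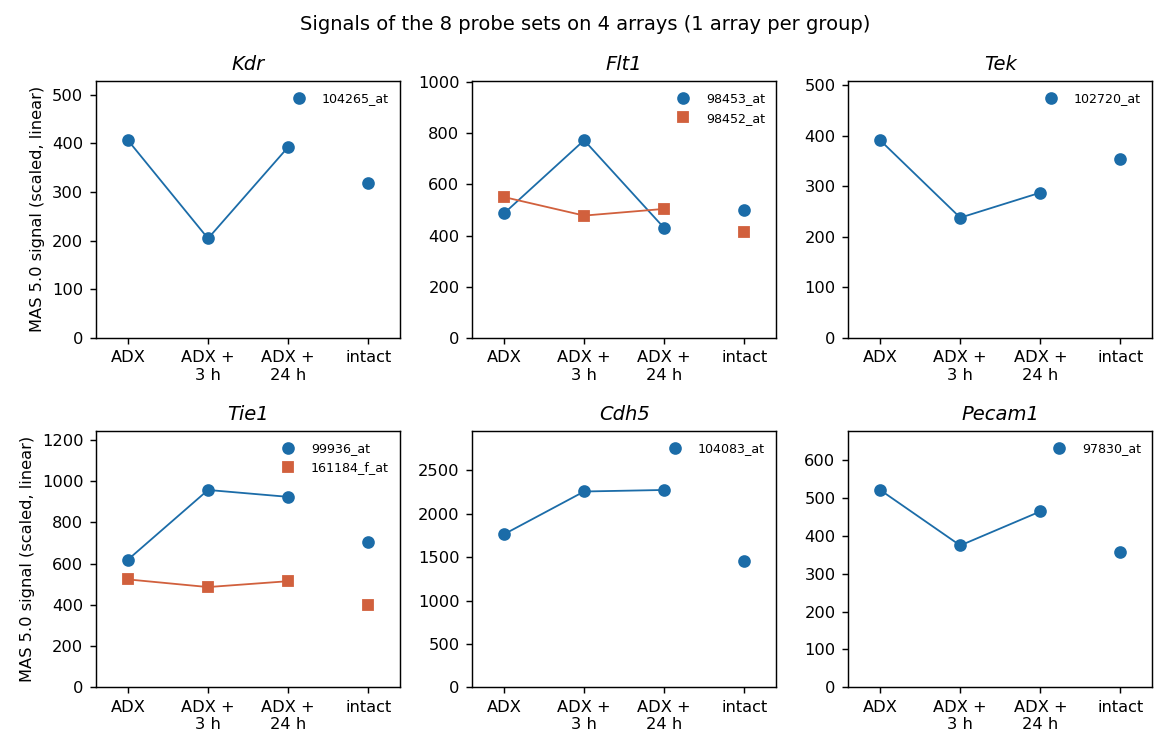
Signals (y axis, linear, scaled to a trimmed mean of 500) of the 8 probe sets on the 4 arrays (x axis; ADX, adrenalectomized; 3 h and 24 h, hours after cortisol), 1 panel per gene, 1 point per array and 1 colour per probe set within a panel, with lines joining the adrenalectomized array and the 2 times after cortisol. Kdr is lowest at 3 h with 204, and the probe sets of Flt1 and of Tie1 part at 3 h.

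Tek had signals of 391 on the adrenalectomized array, 238 at 3 h, 287 at 24 h and 354 on the intact array. Both arrays taken after cortisol were below both arrays without it. Against the adrenalectomized array Tek was 1.64-fold lower at 3 h (log2 ratio -0.72) and 1.36-fold lower at 24 h (log2 ratio -0.44), and it differed by 1.10-fold between adrenalectomized and intact mice. Kdr and Tek, the main signalling receptors for VEGF and for angiopoietins, were thus both lower at 3 h. At 24 h Kdr was close to its level without cortisol while Tek lay between its 3 h level and that level.

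Tie1 again had a pair of probe sets. The set 99936_at read 619 on the adrenalectomized array, 957 at 3 h, 923 at 24 h and 704 on the intact array, with both cortisol arrays above the others. The set 161184_f_at, whose suffix marks probes that can detect several related transcripts, read 523, 486, 515 and 399.7 in the same order and had no such step. At 3 h against the adrenalectomized array the first was 1.55-fold higher (log2 ratio 0.63) and the second 1.08-fold lower (log2 ratio -0.11), and 63 of 928 genes (6.79%) had a gap at least as large. At 24 h the log2 ratios were 0.58 and -0.02, and 158 of 926 genes (17.1%) had such a gap. Against intact mice the sets were close at both times, at 1.36-fold and 1.22-fold higher at 3 h and 1.31-fold and 1.29-fold higher at 24 h.

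The junction genes Cdh5 and Pecam1 went opposite ways after cortisol. Cdh5 was the brightest member, with signals of 1764 on the adrenalectomized array, 2257 at 3 h, 2274 at 24 h and 1459 on the intact array. Both cortisol arrays were higher than the adrenalectomized array, which was higher than the intact array. Cdh5 was 1.28-fold higher at 3 h and 1.29-fold higher at 24 h than on the adrenalectomized array, both under the 1.5-fold mark. Against intact mice it was 1.55-fold higher at 3 h and 1.56-fold higher at 24 h. Pecam1 had 520.2 on the adrenalectomized array, 374 at 3 h, 464 at 24 h and 357 on the intact array. It was 1.46-fold higher after adrenalectomy than in intact mice, the largest such ratio among the members, and at 3 h it was 1.39-fold lower than on the adrenalectomized array and within 1.05-fold of the intact array.

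A ratio of 2 probe sets on the same array does not change when the whole array is multiplied by 1 factor. Quantile normalization can change it. At 3 h the ratio of Kdr to Cdh5 was 0.393 times its value on the adrenalectomized array, that of Tek to Cdh5 was 0.475 times and that of Pecam1 to Cdh5 was 0.562 times. At 24 h these were 0.749, 0.570 and 0.691 times. For adrenalectomized against intact mice they were 1.05, 0.913 and 1.20 times. The members therefore differed unequally after cortisol, with Kdr, Tek and Pecam1 lower relative to Cdh5 at both times. Cdh5 itself was higher on both cortisol arrays, with log2 ratios of 0.36 and 0.37 to the adrenalectomized array, which lowers every ratio to it. At 24 h Kdr and Pecam1 alone had log2 ratios of -0.05 and -0.17, within the probe error SD of 0.32, and Tek had -0.44.

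Counted over the 8 probe sets, 2 were at least 1.5-fold higher (98453_at of Flt1 and 99936_at of Tie1) and 2 at least 1.5-fold lower (Kdr and Tek) at 3 h against adrenalectomized, and none reached 2-fold. Of all 8263 probe sets in that comparison 5.29% were higher and 4.87% lower by that much (10.2% together), 3.12% reached 2-fold, and 1.5-fold was passed by 6.61% of those with a mean signal in the range of the members. With arrays scaled to ribosomal protein probe sets, 0 were higher and 3 lower, with Pecam1 added to Kdr and Tek. At 24 h against adrenalectomized 0 of 8 passed 1.5-fold, against 10.9% of all probe sets, and 99936_at of Tie1 came closest at 1.49-fold higher. For adrenalectomized against intact 0 of 8 passed, against 5.18% of all probe sets. In that comparison 6 of the 8 were above 0, with a median log2 ratio of 0.31, where all probe sets had a median of 0.01. Kdr, 98452_at of Flt1, Tek, 161184_f_at of Tie1, Cdh5 and Pecam1 made up the 6.

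The remaining pairs of arrays gave few calls. At 24 h against 3 h, Kdr was at least 1.5-fold higher and 98453_at of Flt1 at least 1.5-fold lower (1.80-fold), where 6.22% of all probe sets were higher and 5.95% lower by that much. At 3 h against intact, 98453_at of Flt1 (1.54-fold) and Cdh5 were higher and Kdr (1.56-fold) was lower, and Tek at 1.49-fold lower was just outside. Of all probe sets 5.82% were higher and 4.39% lower by that much. With ribosomal scaling both higher calls were lost (log2 ratios of 0.51 and 0.52), and Tek passed beside Kdr at -0.69. Tek also passed under median scaling and quantile normalization, at -0.61 and -0.59. At 24 h against intact Cdh5 alone passed, on the higher side, as did 6.42% of all. These 6 comparisons share 4 arrays and are not independent of each other.

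**Figure D2:**
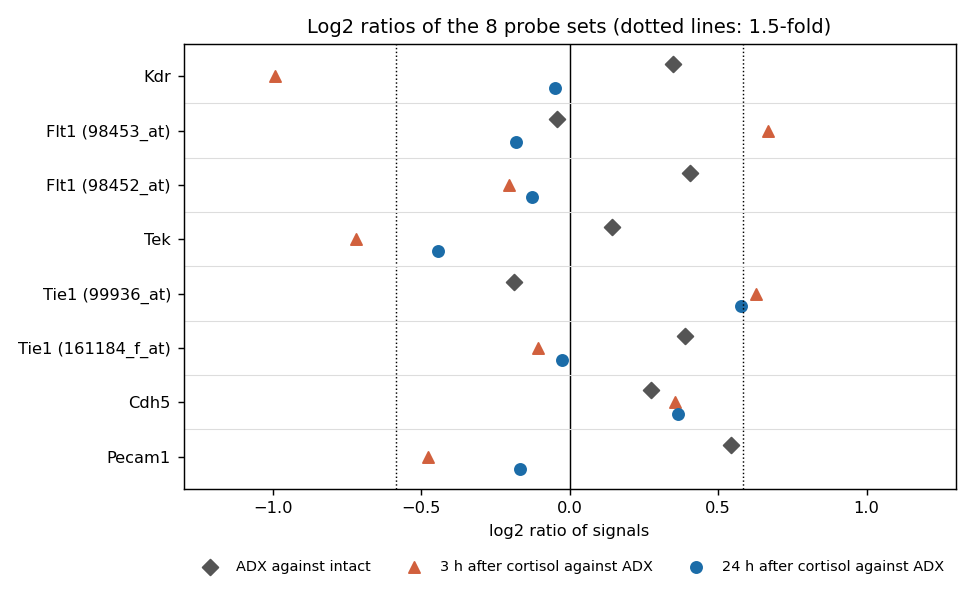
Log2 ratios of signals (x axis) for the 8 probe sets (y axis) in adrenalectomized against intact mice (diamonds), 3 h after cortisol against adrenalectomized (triangles) and 24 h after cortisol against adrenalectomized (circles). Dotted lines mark 1.5-fold. Kdr and Tek pass it below 0 at 3 h, 1 probe set each of Flt1 and Tie1 passes it above 0, and no diamond or circle passes it.

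Likeness between members was measured as the Euclidean distance between log2 signals over the 4 arrays, each centred on its own mean. The closest pair was 98452_at of Flt1 and 161184_f_at of Tie1, at 0.09. Pecam1 was within 0.21 and 0.26 of these, and all 3 were highest on the adrenalectomized array and lowest on the intact array. Cdh5 was 0.33 from 99936_at of Tie1, and Kdr 0.52 from Tek. The widest gap was 1.41, between Kdr and 98453_at of Flt1. Both probe sets of Flt1 were 0.75 apart and both of Tie1 0.56, so neither gene's sets were each other's closest match. Among 5452 genes at or above the floor on all arrays, those nearest to Kdr were Pik3cd (0.12), Icam2 (0.13) and Grid1 (0.14). The nearest to 98453_at of Flt1 were Wdr92 (0.04), Slc35e4 (0.05) and Bach1 (0.06), and those nearest to Tek were Abcd2 (0.09), Myl6b (0.11) and Cd276 (0.11). For 99936_at of Tie1 they were 1700017B05Rik (0.05), Zfp622 (0.08) and Taf1b (0.10), and for Cdh5 Tbc1d14 (0.02), Dtymk (0.06) and Slc35a2 (0.08).

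The ligands and co-receptors of these receptors were read through 11 of 12 listed genes, each by its brightest probe set. Vegfa, the main ligand of Kdr and Flt1, was lower on both arrays after cortisol. Its signal was 1109 on the adrenalectomized array, 594 at 3 h, 836 at 24 h and 1299 on the intact array. That is 1.87-fold lower at 3 h and 1.33-fold lower at 24 h against the adrenalectomized array. It was the only one of 9 compared genes past 1.5-fold at 3 h, when 4.75% of all genes were lower by that much and 5.07% higher, and the median of the 9 was a log2 ratio of -0.20. Vegfb, a ligand of Flt1, had a signal of 1740 at 3 h, against 1746 on the adrenalectomized array. Vegfc and the Tek ligand Angpt2 were below the floor on the adrenalectomized, 3 h and intact arrays, and Angpt1, the activating ligand of Tek, lay near it with 123, 107, 70.2 and 102 in the order adrenalectomized, 3 h, 24 h and intact. Ptprb, which encodes a phosphatase that acts on Tek and VE-cadherin, had a signal of 461 at 3 h, against 322 on the adrenalectomized array. The VEGF co-receptor gene Nrp1 had log2 ratios of -0.44 and -0.89 at 3 h by its 2 probe sets.

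Of 14 compared genes listed as junction partners, 3 passed 1.5-fold in adrenalectomized against intact mice. This list also holds surface and adhesion genes such as Cd34, Mcam, Emcn and Icam2, which are not partners of VE-cadherin. A log2 ratio above 0 was found for 13 of the 14, against 52.0% of all genes, with a median of 0.25 against 0.01 for all genes. The probe error SD of 0.24 is that of 1 probe set and does not apply to such a median. The 3 were at least 1.5-fold higher, with 0 lower, where 2.67% of all genes were higher and 2.24% lower by that much. Under median scaling 11 of 14 were above 0 and 2 passed 1.5-fold. Cd34, a surface mucin of capillary endothelium and progenitor cells, had a signal of 1227 after adrenalectomy, against 731 in intact mice, a ratio of 1.68-fold. Its other probe set had a log2 ratio of 0.43. F11r, which encodes the tight junction protein JAM-A, had 555 after adrenalectomy, against 345 in intact mice (1.61-fold). Cldn5, the main claudin gene of endothelium, had 582 after adrenalectomy, against 372 in intact mice (1.56-fold). The catenin genes Ctnnb1, Ctnna1 and Ctnnd1, whose products tie VE-cadherin to actin, had log2 ratios of 0.05, 0.28 and 0.02.

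At 3 h against adrenalectomized 10 of the 14 genes listed as junction partners were below 0, with a median of -0.21. Of all genes 46.8% were above 0, and 4.75% were at least 1.5-fold lower. Icam2, an adhesion gene of resting endothelium, alone passed 1.5-fold: its signal was 113 at 3 h, against 207 on the adrenalectomized array (1.83-fold lower), and 199.5 at 24 h and 178 in intact mice. With a floor of 200 no junction gene passed, and with ribosomal scaling 3 did. Cldn5 had 413 at 3 h and F11r 406, which were 1.41-fold and 1.37-fold lower. Jup, the plakoglobin gene, was 1.42-fold higher at 3 h, with 2011 against 1416. Desmosomes of epidermis also use plakoglobin, and epidermal genes were higher on that array, as given below. Their part in the Jup signal was not tested.

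Of 13 compared genes that carry signals inward from the receptors, 0 passed 1.5-fold at 3 h by their brightest probe sets. Of all genes 5.07% were higher and 4.75% lower by that much. The median log2 ratio of the 13 was -0.12. Shc1 had a log2 ratio of -0.21 by its brightest probe set. Its other probe set was past 1.5-fold at -0.67, with 145 at 3 h against 230 on the adrenalectomized array. At 24 h against adrenalectomized 3 of the 13 passed. Pik3r1, a regulatory subunit of phosphoinositide 3-kinase, was 1.86-fold lower (149 against 277), and Nos3, the endothelial nitric oxide synthase gene, was 1.59-fold lower (151 against 239). The adaptor gene Grb2 was 1.51-fold higher at 24 h (998 against 659). Among all genes at 24 h, 5.49% were higher and 4.51% lower by 1.5-fold or more. Nos3 had also been 1.63-fold higher after adrenalectomy than in intact mice (239 against 147), so that the 24 h and intact arrays were alike in this gene.

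Genes listed as transcription factors of endothelium were among those that differed at 3 h. Of 14 compared, 5 passed 1.5-fold below 0 and 1 above it, where 4.75% of all genes were lower and 5.07% higher by that much. Their median log2 ratio was -0.27, against -0.02 for all genes. The ETS genes Fli1, Ets1 and Elk3 were all lower. Fli1 had a signal of 126 at 3 h, against 239 on the adrenalectomized array (1.90-fold lower). Ets1 had 125 at 3 h, against 236 (1.89-fold lower), and its other probe set had a log2 ratio of -0.90. Elk3 had 112 at 3 h, against 224 (1.99-fold lower). Lyl1, a helix-loop-helix factor gene of blood and vessel cells, had 132 at 3 h, against 243 (1.83-fold lower), and Sox7 had 266 at 3 h, against 467 (1.75-fold lower). On the 24 h array Lyl1 read 251 and Sox7 503, both within 1.08-fold of the adrenalectomized array, and Fli1 read 214 (1.12-fold lower). Ets1 and Elk3, at 171 and 178, lay below both the adrenalectomized and the intact array at 24 h, 1.38-fold and 1.25-fold lower than after adrenalectomy alone. The other probe set of Ets1 was below the floor at 24 h, with 83.6 against 214, a log2 ratio of -1.10 to the floor, so the 2 sets of Ets1 did not give the same level at that time.

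Except for Sox7 the lower factor genes were dim. Among genes with a mean signal from 100 to 300, 8.63% were at least 1.5-fold lower at 3 h. With a floor of 200 in place of 100, 1 of the 14 was at least 1.5-fold lower, because signals of 112 to 132 then count as 200. Sox17, named after its values were seen, went the other way with 1056 at 3 h, against 614 on the adrenalectomized array (1.72-fold higher). Its other probe set read 368 at 3 h, against 86.7, a log2 ratio of at least 1.88 given the floor. Ets2, Sox18 and Epas1 had log2 ratios of -0.25, -0.54 and 0.16.

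**Figure D3:**
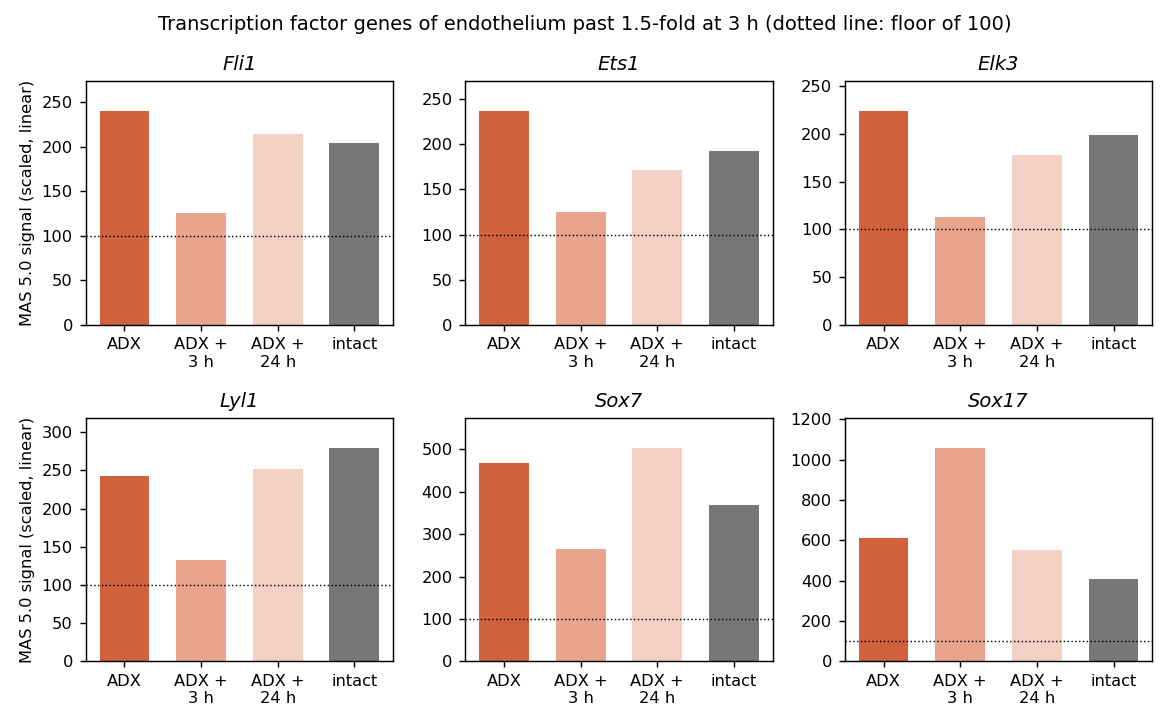
Signals (y axis, linear, from 0) of 6 endothelial transcription factor genes on the 4 arrays (x axis; ADX, adrenalectomized; 3 h and 24 h, hours after cortisol), 1 bar per array, by the brightest probe set of each gene; the dotted line is the floor of 100. Fli1, Ets1, Elk3, Lyl1 and Sox7 are lowest at 3 h and Sox17 is highest there.

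Other endothelial markers showed no common direction at 3 h. Of 24 such genes on the array 18 were at or above the floor on the adrenalectomized array, 19 at 3 h, 19 at 24 h and 17 on the intact array, and the endothelial selectin genes Sele and Selp were below it on all 4. The median log2 ratio at 3 h was -0.01 over 19 genes and became positive under median scaling and quantile normalization. Cd93, a surface receptor gene of endothelium and myeloid cells, was, like Pecam1, highest on the adrenalectomized array and lowest on the intact array. Its signal was 1484 on the adrenalectomized array, 855 at 3 h, 924 at 24 h and 690 on the intact array. It was 2.15-fold higher after adrenalectomy than in intact mice and, against adrenalectomy alone, 1.73-fold lower at 3 h and 1.61-fold lower at 24 h. Ramp2, which encodes the partner of the adrenomedullin receptor, had 1529 at 3 h, against 934 on the adrenalectomized array (1.64-fold higher). Edn1, the gene of the vasoconstrictor endothelin-1, was at least 1.93-fold higher at 3 h, with 193 against 99.4. Vwf, Eng and Procr stayed within a log2 ratio of 0.23 at 3 h.

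**Figure D4:**
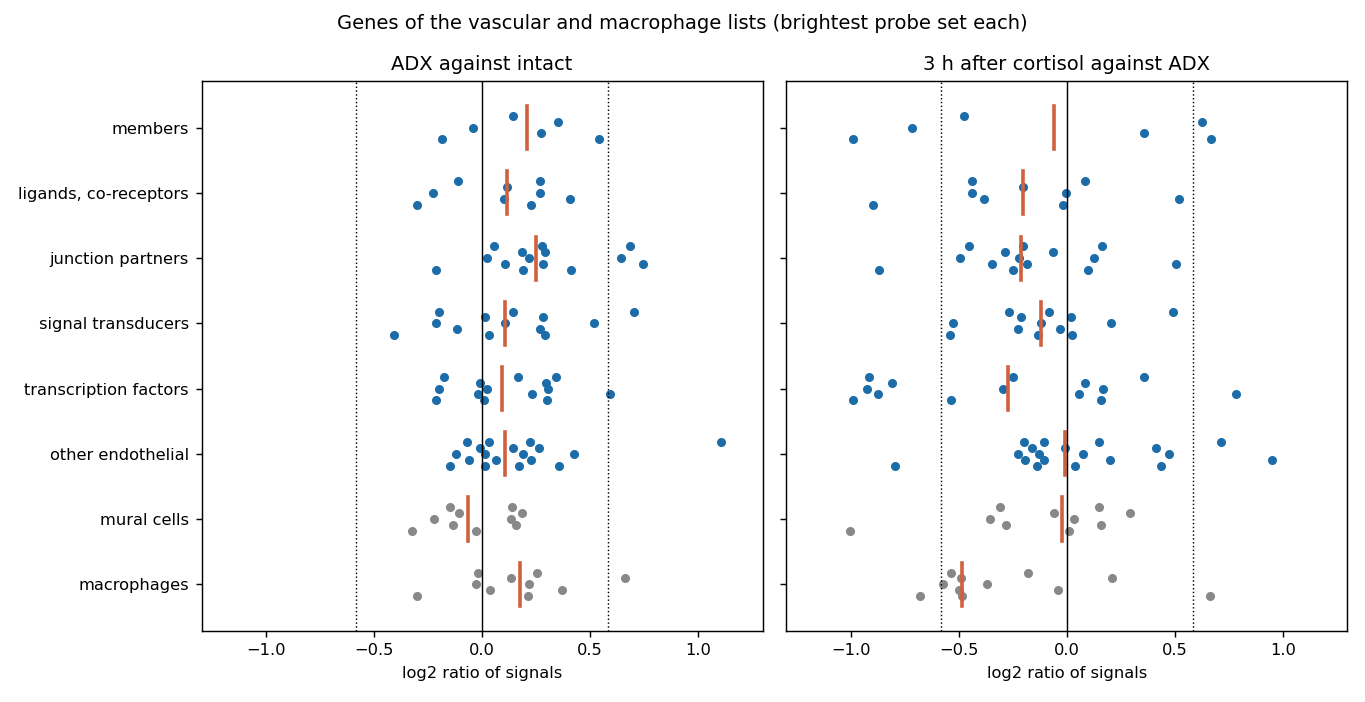
Log2 ratios of signals (x axis) in adrenalectomized against intact mice (left) and at 3 h after cortisol against adrenalectomized (right), 1 point per gene by its brightest probe set, for the members and 7 lists (y axis; blue, endothelial lists; grey, mural cells and macrophages). Red bars are medians and dotted lines mark 1.5-fold. The junction partners have a median of 0.25 on the left and -0.21 on the right, and the macrophage markers one of 0.17 and -0.48.

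Markers of other cells in the muscle moved with some of these results, and their part in them was not tested. Macrophage markers, of interest because macrophages also carry Flt1 and Pecam1, had 10 of 13 genes at or above the floor on each array, not the same 10 throughout. They summed to 5512 on the adrenalectomized array, 4429 at 3 h, 5211 at 24 h and 5002 on the intact array. At 3 h 9 of 11 were below 0, with a median log2 ratio of -0.48. Of all genes 46.8% were above 0 at that time, with 5.07% higher and 4.75% lower by 1.5-fold. Of the 11, Tyrobp, a receptor adaptor gene of myeloid cells, was 1.60-fold lower at 3 h (147 against 236), and Fcgr3, an Fc receptor gene, was at least 1.59-fold higher (159 against 96.8). Mrc1, the mannose receptor gene, was 1.49-fold lower at 3 h and 1.93-fold lower at 24 h. Csf1r, the receptor gene for the macrophage growth factor, had probe sets with log2 ratios of -0.54 and 0.71 at 3 h. In adrenalectomized against intact mice Tyrobp was 1.58-fold higher. The defining marker Adgre1 read 113 on the adrenalectomized array, 18.3 at 3 h, 35.9 at 24 h and 139.6 on the intact array, and Itgam and Aif1 were below the floor on all 4. All 5 platelet marker genes on the array, Itgb3, Pf4, Gp1bb, Gp5 and Gp9, were below the floor on the adrenalectomized, 3 h and intact arrays, and Gp9 alone reached it at 24 h. Mural cell markers, which accompany capillaries, summed to 9958, 9077, 10170 and 10111 in the order adrenalectomized, 3 h, 24 h and intact. Their median at 3 h was -0.02 and turned positive under median scaling, and Kcnj8, a potassium channel gene of pericytes, was 2.01-fold lower (220 against 441).

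Slow fibres have denser capillaries than fast ones. The 11 slow fibre genes summed to 84014 on the adrenalectomized array, 31222 at 3 h, 30186 at 24 h and 76922 on the intact array. Against the adrenalectomized array 8 were at least 1.5-fold lower at each time, where 4.75% of all genes at 3 h and 4.51% at 24 h were. Epidermis and hair genes summed to 1873 on the adrenalectomized array, 13262 at 3 h, 3782 at 24 h and 1787 on the intact array. At 3 h 12 of the 14 compared were at least 1.5-fold higher, where 5.07% of all genes were. With adrenalectomized signals under 100, Krt27, Krt25, Dsp, Flg, Krtap8-1, Perp and Lgals7 were compared through their 3 h signal alone. They could only be scored as higher, so the count of 12 was in part fixed by the filter. Of the genes above the floor in both groups, Krt1, Krt10, Krt71, S100a3, Trp63 and Sfn passed 1.5-fold and Lor did not. Below the floor on all arrays were Krt5, Krt14 and Krt15, the keratin genes of basal epidermis. Adipocyte markers summed to 21255, 20403, 19570.0 and 20818 in the order adrenalectomized, 3 h, 24 h and intact. Erythroid genes, a sign of blood left in the tissue, summed to 8634 on the adrenalectomized array, 9252 at 3 h, 8389 at 24 h and 6643 on the intact array, so they were lowest in intact mice, as 98452_at of Flt1, 161184_f_at of Tie1, Cdh5 and Pecam1 were.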

How the data were processed

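The authors isolated total RNA with Trizol and computed probe set intensity signals with MAS 5.0, per the labels' protocols; the deposited intensity values are linear, and their trimmed mean over non-control probe sets lay between 498.7 and 498.9 on every array before rescaling. Per the labels, the arrays have no replicates. Genome build and scaling settings are not given in the sources used here.

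Of 12488 probe sets, 66 controls were left out. Each array was scaled to a trimmed mean of 500 (2% left out at each end), signals under 100 were set to 100, and log2 ratios were taken for 3 main and 3 further comparisons with Python 3.11.15, numpy 2.4.6 and pandas 2.3.3. A probe set or gene was compared where at least 1 array reached the floor. Annotation gave 10833 probe sets 1 symbol, 396 several and 1193 none; 10817 of the 10833 matched the GRCm38.p6 gene table. Scaling and ratios were tested on simulated data. The members and the 14 further lists were chosen with earlier results of these data known. Named genes were all members, listed genes past 1.5-fold in a main comparison (at most 5 a list) and the 3 nearest patterns per member whose brightest set spanned 1.5-fold; other listed genes in the text were chosen after their values were seen. Alternatives changed floor, scaling, filter and choice of probe set. Promoters came from RefSeq for 4 of the 6 members.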

Additional observations from a re-analysis of the deposited data

Results flagged for a closer look

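The Flt1 probe set 98453_at stood out because its direction against the adrenalectomized array was opposite at the 2 times after cortisol. Its log2 ratio was 0.67 at 3 h and -0.18 at 24 h, 1 array each, and the difference was not tested. The 24 h value lay within the probe error SD of 0.32 for that comparison. The other Flt1 probe set, 98452_at, had log2 ratios of -0.20 at 3 h and -0.13 at 24 h, the same sign at both times.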

How the results depend on the processing

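Counts of member probe sets past 1.5-fold were recomputed under 8 alternatives in 6 comparisons. With the mean over a gene's probe sets, 2 of 6 genes passed at 3 h against adrenalectomized (Kdr and Tek, both lower), in place of 4 of 8 probe sets, and 1 passed at 24 h against 3 h in place of 2, because averaging joined the unlike sets of Flt1 and Tie1. Under median scaling 0 passed at 24 h against intact in place of 1, since Cdh5 was at 1.48-fold. Kdr stayed between 1.94-fold and 2.19-fold lower at 3 h against adrenalectomized, and Tek between 1.62-fold and 1.81-fold. Of 366 member values under alternatives, 362 moved by less than the probe error SD, 4 by more, and 0 called values changed sign. The lowest member signal was 204, for Kdr at 3 h. Floors of 50 or 200, or a need for both arrays to reach the floor, therefore could not move any member value. Those unmoved values are among the 362, so that count overstates how far the values were tried. Scaling to 28 ribosomal protein probe sets shifted the median of all probe sets to -0.15 at 3 h against adrenalectomized, 0.12 at 24 h against 3 h and -0.12 at 3 h against intact. It changed the share of higher among all calls at 3 h against adrenalectomized to 31.6% from 52.1%, at 24 h against 3 h to 66.1% from 51.1%, and at 3 h against intact to 38.1% from 57.0%. Median scaling changed that share to 38.9% from 53.3% for adrenalectomized against intact and to 46.3% from 59.4% at 24 h against intact. With a floor of 50, 774 probe sets were higher and 704 lower by 1.5-fold at 3 h against adrenalectomized, and with a floor of 200, 224 and 201, in place of 437 and 402. No paired analysis was possible because each group had 1 array, and for the same reason no replicate could be left out. Signals near the floor, such as those of Angpt1 and of the ETS genes at 3 h, limit what can be read from them.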
